A study of Zea mays with 24 samples.

Results

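The 200 maize (Zea mays) genes described here were highest in intact root tips without cap, out of 8 root samples. They were selected on the deposited values themselves. Group means were taken over 3 libraries each for the 39336 identifiers that begin with Zm00001d, out of 39510 in the table. A gene was kept when its mean in intact tips was at least 50 and at least 2 times the second highest group mean, and when its lowest intact tip library lay above that second highest mean. This left 310 genes, and the 200 with the highest ratio of (mean in intact tips + 1) to (second highest mean + 1) were taken. Because the rule used the levels in intact tips and in the highest of the 7 other groups, the height of the genes in intact tips is a description and carries no test. Values are read counts per gene that the authors divided by a size factor per library, called normalized reads below.

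Each group had 3 libraries, all from plants aged 7 days after germination. The labels of every library also give 26 °C, 12 h of light and 12 h of dark, and 15 min of staining. Intact tips (wild-type B73) were labelled as whole meristems without their cap. The root cap (wild-type B73) was labelled as dissected. The other 6 groups were protoplasts, which are cells freed of their walls. Unsorted protoplasts without cap came from wild-type B73. The quiescent center was sorted from a ZmWOX5::RFP reporter line and the endodermis from a ZmSCR::RFP reporter line, both in a B73/Hi-II background, while epidermis, cortex and stele were sorted by dye from wild-type B73. In the reporter lines the cells collected were those in which the WOX5 or SCR promoter drove the fluorescent protein. The labels carry the same protoplast and dye text for every library, so the handling of intact tips and root cap is known from the sample labels alone. Tissue cannot be told apart from line and sorting method for the quiescent center and the endodermis. No label ties replicates to separate plants or sorts. The p-values therefore reflect the spread among these libraries alone, which may be technical.

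The root tip is built in concentric layers, with the epidermis outside, then cortex, endodermis and the stele with its vascular strands. At the distal end lie the quiescent center, a small group of slowly dividing cells, and the cap that covers it. Intact tips without cap hold all these layers at once. Turning tissue into protoplasts takes an enzyme digestion, during which cells can change their transcripts and some cell types are released more readily than others. The table gives identifiers only, and 0 of the 200 genes matched the supplied RefSeq table (assembly Zm-B73-REFERENCE-NAM-5.0). Names, functions, defining markers of each tissue and sequences of these genes were therefore not analysed here.

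The libraries held 21978670 to 50289026 reads recovered from the values (median 31133613). Counting error at a value of 0 leaves room for 3 reads, which equal 1.81 to 4.46 normalized reads depending on the library. Fold changes given below against this floor take the mean of the higher group as observed. They allow for counting error at 0 only, not for the spread among libraries. Most of the genes were moderately expressed in intact tips. The mean in intact tips was at least 1000 in 50 genes, 100 to 1000 in 122 and under 100 in 28, with a median of 376 normalized reads. The second highest group had a median of 104 normalized reads over the 200 genes. The median ratio of the means was 3.28, from 2.43 to 33.9. It was at least 3 in 121 genes, at least 4 in 67, at least 5 in 41 and at least 10 in 11, so large ratios were the exception. In a bulk sample, fewer cells of a type and less RNA per cell cannot be told apart.

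**Figure D1:**
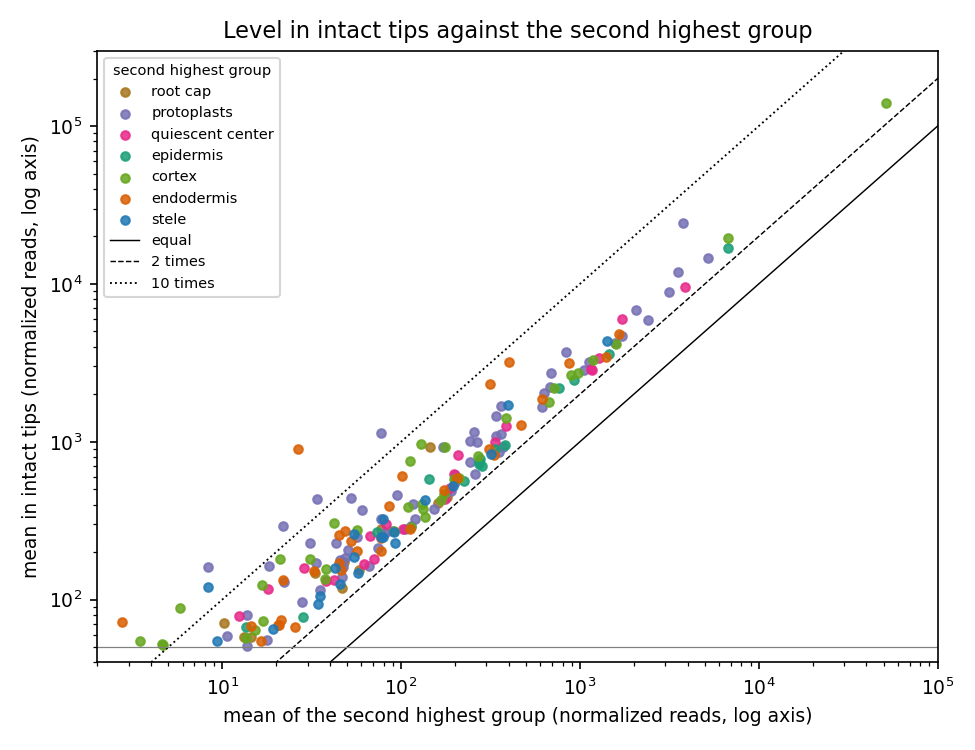
Each of the 200 genes is a point, with its mean in the second highest group on the x axis and its mean in intact tips on the y axis, both in normalized reads on log axes, and coloured by which group was second highest. Lines mark equal values, 2 times and 10 times, and the grey line marks the limit of 50; most points lie between the 2-fold and the 10-fold lines, and 11 genes reach a ratio of 10.

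The highest ratio belonged to Zm00001d034898, with 1135, 946 and 630.4 normalized reads in the 3 intact tip libraries. Its second highest group was the endodermis, with 49.6, 18.1 and 12.2. All 3 quiescent center libraries were at 0, and 1 unsorted protoplast library held 65.3 while the other two were at 0. Every intact tip library lay far above all 21 others, and this gene was also at 0 in 2 root cap libraries.

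Zm00001d049181, next by ratio, was low throughout, with 59.6, 88.1 and 69.6 normalized reads in intact tips. It was at 0 in all libraries of the unsorted protoplasts, quiescent center, epidermis and cortex. The endodermis, its second highest group, held only 12 reads over 3 libraries, so the ratio of 26.5 rests on few reads. Zm00001d048273, which followed, was uneven in intact tips, at 282, 28.6 and 174 normalized reads. Its lowest intact tip library was close to the 25.04 of 1 unsorted protoplast library, and the other two protoplast libraries were at 0.

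Zm00001d018788 was among the stronger genes at the top of the ranking, with 1439.7, 746 and 1221 normalized reads in intact tips. It had 83.2, 38.5 and 111 in unsorted protoplasts and 49.2, 31 and 24.3 in the stele. Unlike the 3 genes above it, it was detected in each of the 7 other groups. Zm00001d025314 held 594, 499.9 and 208 normalized reads in intact tips and 22.1, 32.7 and 46.4 in unsorted protoplasts. Zm00001d037487 held 525, 237 and 113 in intact tips and 33.7, 31.8 and 0 in unsorted protoplasts. Both of these genes were at 0 in all quiescent center libraries, and in both the highest intact tip library was more than 2 times the lowest.

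The remaining genes of the first 10 were weak. Zm00001d042638 had 182, 78.6 and 98.8 normalized reads in intact tips, and 7.64, 4.28 and 13.1 in the stele. Zm00001d004424 had 110.3, 79.7 and 74.7 in intact tips, and 11.7, 3.001 and 2.70 in the cortex. Zm00001d031476 and Zm00001d044120 averaged 54.9 ± 30.8 and 52.1 ± 17.4 normalized reads in intact tips (SD, n = 3), and 3.48 ± 5.19 and 4.60 ± 3.07 in the cortex, their second highest group (SD, n = 3). In these 4 genes the second highest group held 8 to 27 reads over its 3 libraries, so their ratios of 11.3 to 15.8 are imprecise. All 10 genes were at 0 in at least 2 quiescent center libraries.

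**Figure D2:**
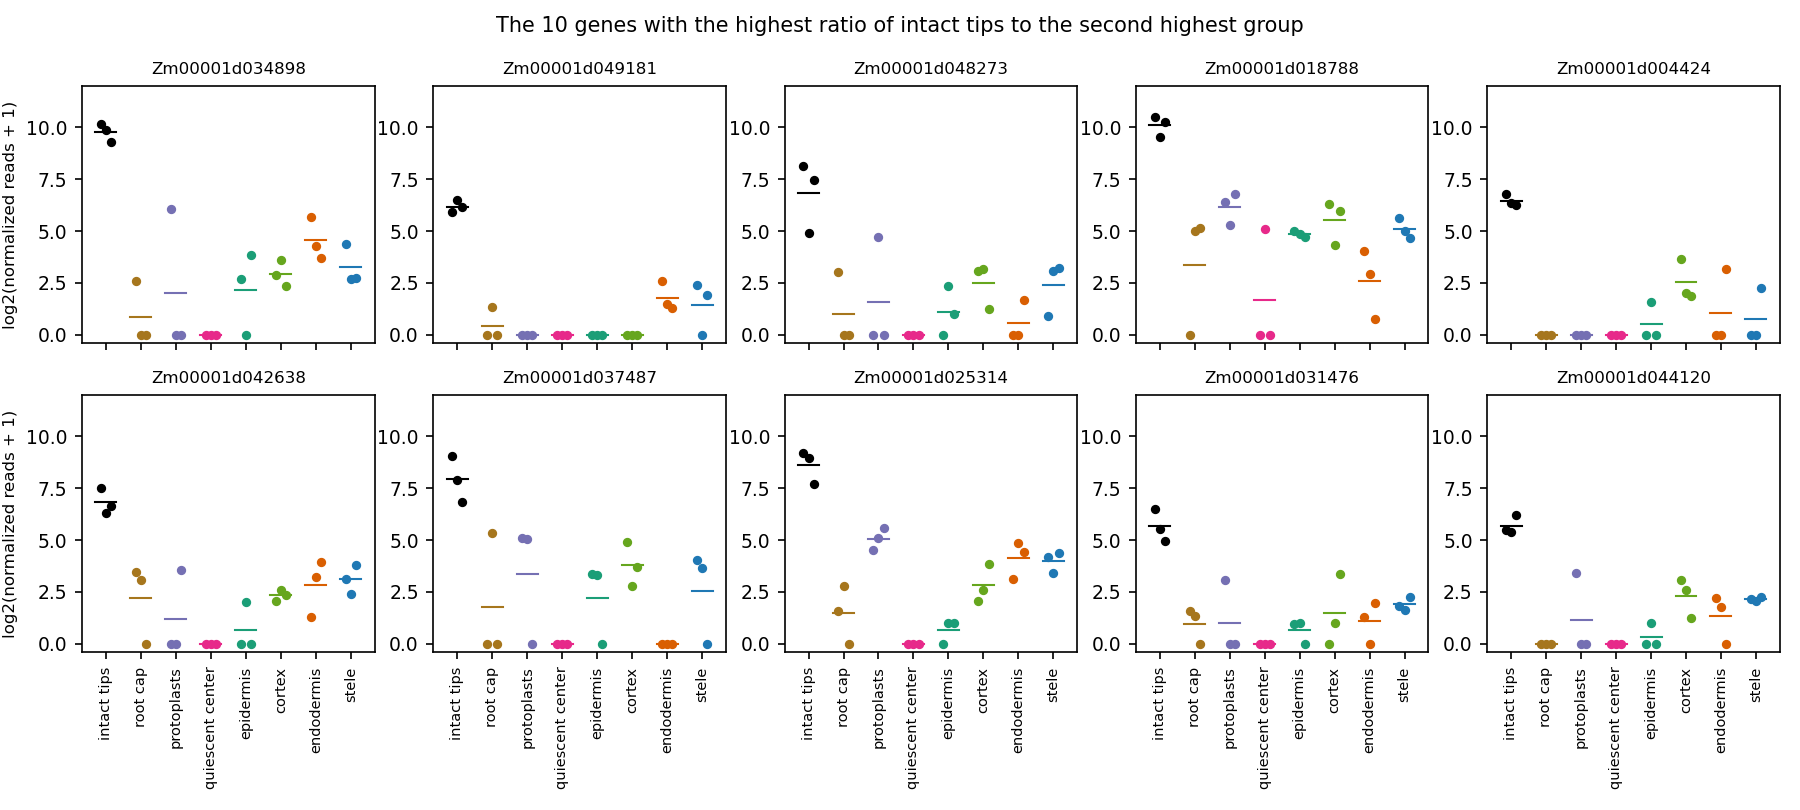
Each panel shows 1 of the 10 genes with the highest ratio, with log2(normalized reads + 1) on the y axis and the 8 groups on the x axis; points are the 3 libraries of a group and bars their mean on that scale. Every intact tip library lies above every other library, while the other 7 groups sit lower, many at 0.

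At the other end of the ranking, the last genes taken had ratios, with 1 added to both means, of 2.43 (Zm00001d003104) and 2.42 (Zm00001d050705). Zm00001d003104 had 993, 699.9 and 874 normalized reads in intact tips and 467, 393 and 194 in unsorted protoplasts. Zm00001d050705 had 585, 277 and 1019.5 in intact tips and 271, 195 and 311 in unsorted protoplasts. The lowest intact tip library of Zm00001d050705 lay below its highest protoplast library. Just outside, Zm00001d040741 and Zm00001d046596 had ratios of 2.41 and 2.40, with means of 1241 and 7374 normalized reads in intact tips. The ranking is continuous across this limit.

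The strongest gene in intact tips was Zm00001d014887, with 139722, 167109 and 113949 normalized reads. Only 5 genes of the whole table had a higher mean in intact tips. It was high everywhere else too, with 40297, 18541 and 96062 in the cortex, 41071, 35683 and 33021 in unsorted protoplasts and, at the lowest, 10934, 7727 and 9662 in the root cap. The cortex libraries of this gene spread widely, and 1 of them came near the lowest intact tip library. This gene alone made up 33.9% of the summed level of the 200 genes in intact tips, and the 10 strongest genes made up 62.5%.

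Zm00001d038598 followed, with 35988, 20381 and 16515 normalized reads in intact tips. It had 3821, 3775 and 3779 in unsorted protoplasts and 1949, 3889 and 1521 in the cortex. In the root cap it was almost absent, at 6.10, 0 and 0. Zm00001d027548, which had the highest mean in a second group after Zm00001d014887, held 26055, 11289.6 and 13533 in intact tips and 4489, 5770.3 and 9894 in the epidermis, its second highest group. Its unsorted protoplasts lay within the range of its epidermis, at 6839.7, 5373 and 5364.

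Together the 200 genes took up 1.52% ± 0.190 of all normalized reads in intact tips (SD, n = 3). They took up 0.119% ± 0.0357 in the root cap, 0.347% ± 0.0226 in unsorted protoplasts, 0.222% ± 0.0753 in the quiescent center and 0.224% ± 0.0747 in the epidermis (SD, n = 3 each). In the cortex, endodermis and stele the shares were 0.351% ± 0.199, 0.198% ± 0.0582 and 0.164% ± 0.0226 (SD, n = 3 each). Cortex replicate 3 stood apart at 0.579%, and Zm00001d014887 was highest in that cortex library.

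Counting each gene equally, the mean of log2(value + 1) over the 200 genes was 8.78 ± 0.22 in intact tips (SD, n = 3). Below it came the cortex at 5.84 ± 0.09, then unsorted protoplasts at 5.58 ± 0.08 and the stele at 5.55 ± 0.15, whose libraries overlapped (SD, n = 3 each). The endodermis at 4.74 ± 0.20 and the epidermis at 4.66 ± 0.43 did not differ beyond their spread (SD, n = 3 each). The root cap at 3.60 ± 0.55 and the quiescent center at 2.98 ± 0.89 were lowest, with spreads that overlap (SD, n = 3 each). Over the 25555 genes with a value of at least 10 in at least 3 libraries, the same mean stayed between 6.54 ± 0.18 in the quiescent center and 7.40 ± 0.10 in the stele (SD, n = 3), and was 6.91 ± 0.23 in intact tips.

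**Figure D3:**
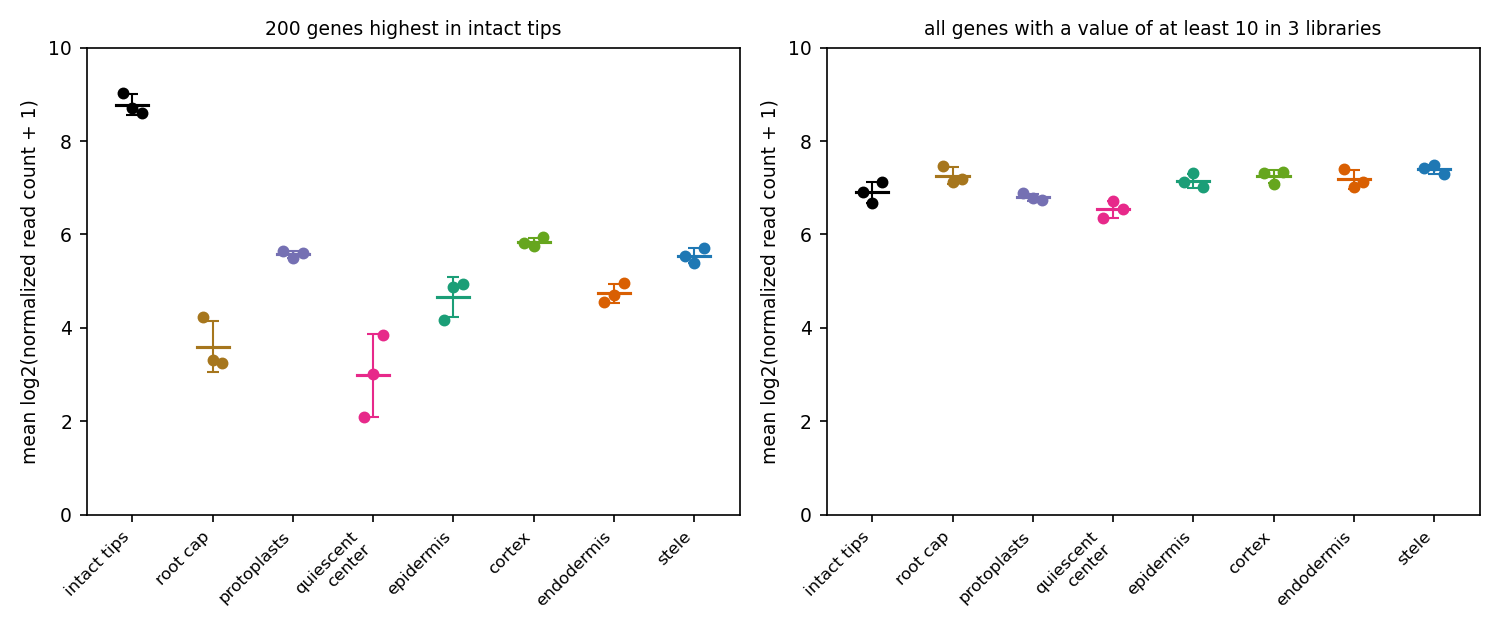
The left panel shows the mean of log2(normalized read count + 1) over the 200 genes in each library, by group, and the right panel the same over all genes with a value of at least 10 in at least 3 libraries; points are libraries, bars the mean and whiskers the SD of 3 libraries. On the left, intact tips lie at 8.78 and the other groups between 2.98 and 5.84, while on the right the groups lie between 6.54 and 7.40.

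Many of the genes were at 0 in part of the series. Of the 200 genes, 69 were at 0 in all 3 quiescent center libraries, 32 in all 3 root cap libraries and 20 in all 3 unsorted protoplast libraries. The number was 10 in the endodermis, 6 in the epidermis, and 1 each in the cortex and the stele. In the order given, these are 34.5%, 16%, 10%, 5%, 3%, 0.5% and 0.5% of the 200 genes. Among the 17641 Zm00001d genes whose intact tip mean reached 50, the shares were 3.44%, 1.27%, 0.94%, 0.35%, 0.29%, 0.028% and 0.017%. That larger set includes genes higher in another group than in intact tips, which the rule left out. None of the 200 genes was at 0 in all 7 other groups, and 109 were detected in each of them. Quiescent center libraries had 45.5% to 69.0% of the 200 genes at 0, beside 18.9% to 23.4% of the 25555 genes. Root cap libraries had 24.5% to 45.5% of the 200 at 0, beside 5.66% to 15.2% of the 25555. For unsorted protoplasts these shares were 18.5% to 21.5%, beside 15.0% to 17.6%, and for the cortex 2.5% to 3%, beside 3.75% to 5.78%. They were 11.5% to 21.5%, beside 2.89% to 8.60%, in the endodermis. The epidermis had 7% to 23%, beside 4.37% to 9.74%, and the stele 1.5% to 3%, beside 2.14% to 3.10%. The 25555 genes had no minimum level in intact tips, whereas the 200 had a mean of at least 50 there, so these sets are unlike. The rule also asked for lower levels outside intact tips, so nothing is read from these shares of zeros.

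Outside intact tips the genes did not share 1 pattern. Unsorted protoplasts were the second highest group in 64 genes, the cortex in 37, the endodermis in 32, the quiescent center in 21, the stele in 20, the epidermis in 15 and the root cap in 11. Protoplasts thus led the 7 other groups in 32.0% of the 200 genes, whereas they led them in 9.17% of the 17641 Zm00001d genes whose intact tip mean reached 50. The quiescent center led in 10.5% of the 200 genes and in 28.9% of that larger set, and the root cap in 5.50% and 14.0%. For the cortex the shares were 18.5% and 13.1%. The larger set includes genes higher in another group than in intact tips, which the rule left out, so the sets are unlike. The part of the zeros in these shares was not tested.

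**Figure D4:**
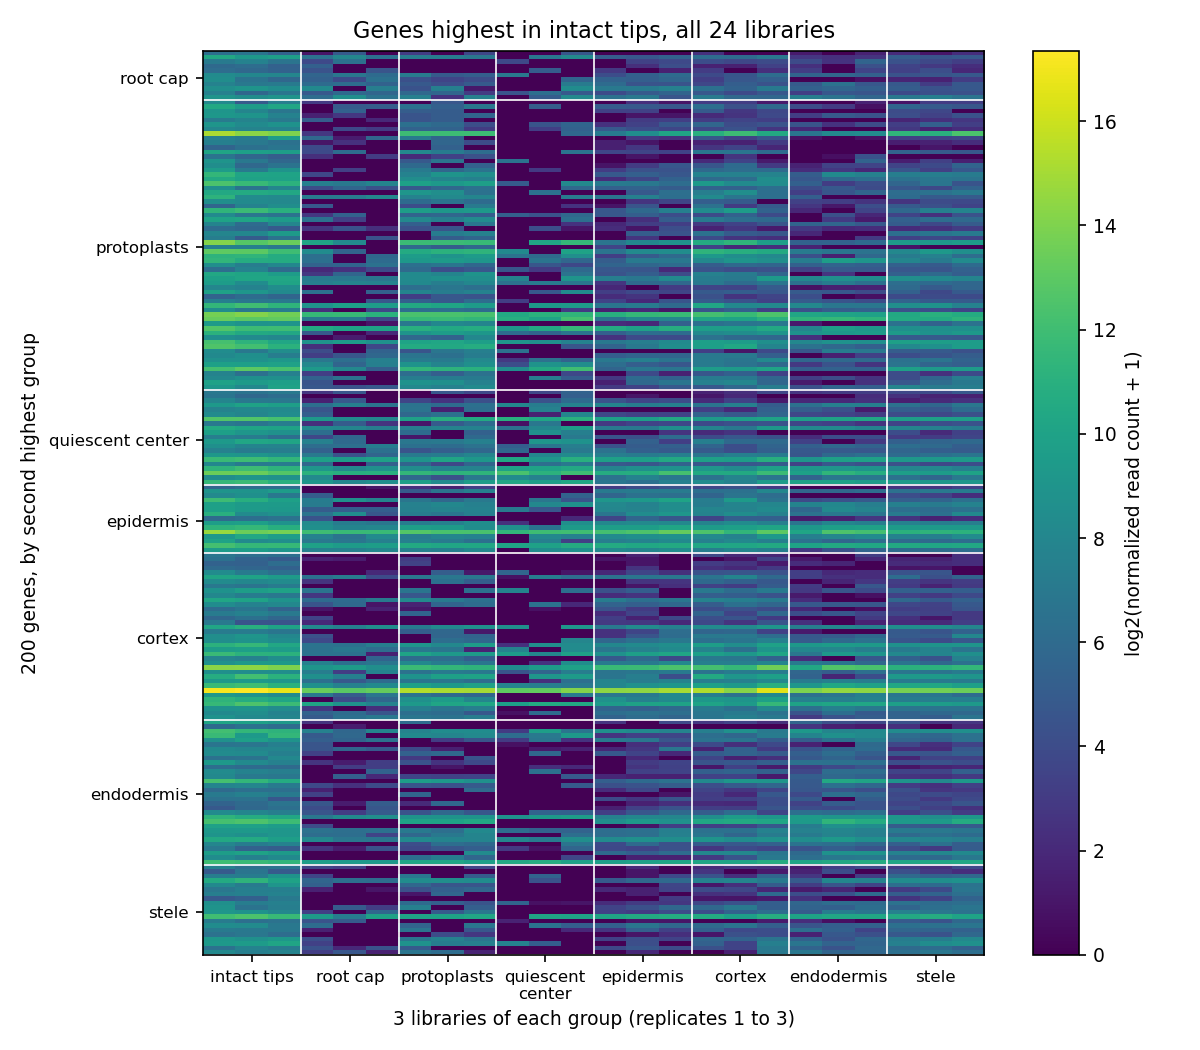
Each row is 1 of the 200 genes and each column 1 of the 24 libraries, 3 per group, with colour for log2(normalized read count + 1); rows are sorted by which group was second highest, named on the left, and white lines part the groups. Intact tips on the left have the highest mean in every row, and dark cells (values at or near 0) are most frequent in the quiescent center and the root cap.

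The highest ranked gene of each of these classes is given here, and naming it was decided after the values were seen. The second highest group was at least 2 times the third in 11 of 64 genes for unsorted protoplasts and 6 of 37 for the cortex. This held in 7 of 32 for the endodermis, 3 of 21 for the quiescent center and 4 of 20 for the stele. It held in 1 of 15 for the epidermis and 0 of 11 for the root cap, so the classes are loose. The protoplast class was led by Zm00001d048273, the cortex class by Zm00001d004424, the endodermis class by Zm00001d034898 and the stele class by Zm00001d042638, all described above. The quiescent center class was led by Zm00001d022295, with 123, 97.6 and 128 normalized reads in intact tips and 0, 12.3 and 42.1 in the quiescent center, against 0 in all epidermis libraries. The root cap class was led by Zm00001d038251, with 76.5, 95.2 and 41.2 in intact tips and 1.02, 29.7 and 0 in the root cap, where a single library carried the mean. The epidermis class was led by Zm00001d023804, with 54.6, 73.8 and 72.1 in intact tips, 7.35, 14.2 and 19.4 in the epidermis and 12.8, 18.01 and 6.75 in the cortex. That last gene was at 0 in all libraries of the quiescent center and the endodermis. Zm00001d022295 had means of 18.1 in the quiescent center and 17.6 in the stele. Zm00001d038251 had 10.3 in the root cap and 8.16 in the quiescent center, and Zm00001d023804 had 13.6 in the epidermis and 12.5 in the cortex. The class of each of these genes thus rests on a near tie.

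The mean of a gene was under 10% of its level in intact tips in 133 of the 200 genes for the root cap, 123 for the quiescent center and 112 for the epidermis. It was so in 96 genes for the endodermis, 93 for the stele, 56 for the cortex and 52 for unsorted protoplasts. The highest and lowest of the 7 other groups lay within 4 times of each other in 34 genes and within 10 times in 64. In the other 136 genes they were further apart or 1 group was at 0.

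Among the 3 intact tip libraries the genes were more often highest in replicate 1 than the rest of the table was. Replicate 1 was the highest of the 3 in 103 genes, or 51.5%, replicate 2 in 61, or 30.5%, and replicate 3 in 36, or 18%. Over the 17671 identifiers of any kind whose intact tip mean reached 50, these shares were 36.8%, 30.1% and 33.1%. The highest intact tip library was 1.80 times the lowest in the median gene, beside 1.59 times over the larger set, and at least 3 times in 36 of the 200. In 166 genes, or 83%, all 3 intact tip libraries lay above every one of the 21 others, beside 3.10% of the 17641 Zm00001d genes whose intact tip mean reached 50. The rule had already asked for a lowest intact tip library above the second highest mean, so nothing is read from that share. In the remaining 34 genes at least 1 other library reached the lowest intact tip library, and the highest of these was an unsorted protoplast library in 13 genes and a quiescent center library in 8.

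The rule was also applied to 2 intact tip libraries and read in the one left out, whose value the choice had then not used; the other 7 groups were the same. Without replicate 1, the 200 first genes held a median of 3.09 times the second highest mean in the library left out, against 3.01 in the libraries kept. Without replicate 2 the medians were 2.82 and 3.55, and without replicate 3 they were 2.52 and 3.58. The library left out lay above the second highest mean in 190, 175 and 190 of the 200 genes, and reached at least 2 times that mean in 160, 141 and 143. The second highest mean had itself been used in the choice, and shares over all genes are not given here. These counts are therefore a description and carry no test. Of the 200 genes described here, 161, 161 and 173 were among those chosen without replicate 1, 2 and 3.

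The rule limited the highest of the 7 other groups but did not otherwise ask how they differ from each other. Genes higher in any of them than in intact tips could not be members. The same rule passed 1087 genes for the root cap, 1042 for the quiescent center and 564 for the endodermis. It passed 238 for the epidermis, 161 for the stele, 42 for unsorted protoplasts and 39 for the cortex. The 4 comparisons tested among the 7 groups are therefore not independent of the selection. Intact tips were left out of this fit. Calls needed a limma adjusted p under 0.05 together with a change of at least 1, up or down, in log2(value + 1). Of the 200 genes, 186 had a value of at least 10 in at least 3 of the 21 other libraries and were tested, together with all others for a total of 25309. The 14 genes not tested reached that value in fewer than 3 of the other libraries. Of those tested, 61 were called in none of the 4 comparisons, 59 in 1, 35 in 2, 27 in 3 and 4 in all 4. These are 32.8%, 31.7%, 18.8%, 14.5% and 2.15% of the 186, beside 36.4%, 36.2%, 19.0%, 7.20% and 1.31% of all genes tested. All p-values below were adjusted over the 25309 genes. Those genes had no minimum level in intact tips, whereas each of the 200 genes had a mean of at least 50 there. The shares and medians of all genes tested, here and below, are therefore from an unlike set.

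The root cap had a lower fitted level than unsorted protoplasts in 149 of the 186 tested genes, or 80.1%, beside 41.4% of all genes tested. Both groups were unsorted wild-type B73, but they differ in tissue and in protoplasting, which cannot be told apart here. Of the 186 tested, 52 fell and 2 rose in the root cap, or 28.0% and 1.08%, beside 11.0% lower and 15.7% higher among all genes tested. The median log2 change was -1.54, against 0.30 over all genes tested. With any 1 library of either group left out, 46 to 53 of the genes were called, and the shares of all genes in these fits are not given here. Of the 52 that fell, 1 (Zm00001d051110) reached the filter on low values only through its protoplast libraries.

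Zm00001d038598 fell most, with 6.10, 0 and 0 normalized reads in the root cap against 3821, 3775 and 3779 in unsorted protoplasts. The groups did not overlap, and the change was -10.95 (SE 1.20) on the log2 scale (limma adjusted p = 3.97e-06). Every root cap library of Zm00001d027645 was at 0, whereas it held 1058, 1041 and 1337 in unsorted protoplasts (limma adjusted p = 2.99e-10). Set against a floor of 3 reads per library, its root cap mean was at least 327-fold lower. In intact tips it held 4798, 5866 and 3849, and its second highest group was the endodermis, at 709, 2614 and 1659.

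The genes that rose in the root cap were both weak. Zm00001d034126 had 20.3, 31.2 and 0 normalized reads in the root cap and 0 in all unsorted protoplast libraries (limma adjusted p = 0.028). Zm00001d038074 had 15.3, 0 and 24.1 in the root cap and likewise 0 in all unsorted protoplast libraries (limma adjusted p = 0.0372). Each had 1 root cap library at 0, so the groups overlapped. Against the floor of 3 reads per library their observed means were 5.36-fold and 4.09-fold higher in the root cap. With 1 root cap library at 0 in each gene, these values are not lower limits for the group. Both calls were lost when any 1 unsorted protoplast library or root cap replicate 1 was left out. The call of Zm00001d034126 was also lost without root cap replicate 2 and that of Zm00001d038074 without root cap replicate 3 (limma adjusted p from 0.0607 to 0.179 over these cases). Quantile normalization ended both calls, at a limma adjusted p of 0.214 for Zm00001d034126 and 0.283 for Zm00001d038074. In all, the call of Zm00001d034126 was lost in 6 of 14 alternatives and that of Zm00001d038074 in 9 of 14, which was also lost with weights per group, with no filter on low values and with pseudocount 10.

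Unsorted protoplasts were compared with the mean of the 5 sorted tissues, all of them protoplasts too. Of the 186 tested genes, 34 rose and 7 fell in unsorted protoplasts, or 18.3% and 3.76%, beside 3.41% higher and 7.64% lower among all genes tested. The median log2 change was 0.86, against -0.11 over all genes tested. The number of calls was 41 with all 3 protoplast libraries, and 27, 21 and 24 without replicate 1, 2 and 3. The shares of all genes called in these fits are not given here. Whether this drop is particular to these genes was therefore not tested. After quantile normalization 37 of the 186 were called higher and 2 lower, beside 4.01% and 4.07% of all genes tested. TMM factors in edgeR gave 40 higher and 0 lower, beside 4.53% and 2.42%. Without the quiescent center among the sorted tissues, 23 were higher and 12 lower, beside 2.21% and 6.98%. Of the 34 genes that rose, 1 reached the filter on low values only through its protoplast libraries, and of the 7 that fell, 6 did so only through the sorted tissues, so these had to differ to be tested.

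Zm00001d051384 rose most on the log2 scale, with 823, 579 and 654 normalized reads in unsorted protoplasts (log2 change 4.86, SE 0.81, limma adjusted p = 0.00134). Its plain means were 685 there and 125 over the sorted tissues. That is a smaller difference than the log2 change, which averages log2(value + 1) over the libraries. Its sorted tissues differed widely, with 0 in all quiescent center libraries, 24.8, 60.6 and 179 in the epidermis, 323, 773 and 43.2 in the cortex, 2.84, 0 and 10.7 in the endodermis and 56.04, 175 and 226 in the stele. A cortex library reached into the range of the protoplasts. Intact tips held 2565, 3589.8 and 2029.6.

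Zm00001d051110 had 57.9, 31.8 and 52.4 in unsorted protoplasts, against at most 11.02 in any sorted library (log2 change 4.63, SE 0.63, limma adjusted p = 2.38e-04). The groups did not overlap, but this is the gene that passed the filter only through its protoplast libraries, so its call is not independent of the filter. It was at 0 in all root cap and all quiescent center libraries.

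Zm00001d039650 and Zm00001d014496 fell most and were at 0 in all 3 unsorted protoplast libraries. Zm00001d014496 held 157, 423 and 349 normalized reads in the endodermis and 32.3, 25.7 and 28.95 in the stele, with at most 27.0 in any other sorted library and 0 in the quiescent center. Its mean in unsorted protoplasts was at least 22.3-fold lower than that of the sorted tissues, against the floor (limma adjusted p = 0.00564), and edgeR did not call it (adjusted p = 1). Zm00001d039650 held 12.1, 71.2 and 73.8 in the endodermis and 39.4, 47.02 and 40.5 in the cortex. Its quiescent center libraries were at 0, 86.1 and 0, and that 86.1 was its highest sorted value. Against the floor, Zm00001d039650 was at least 9.35-fold lower in unsorted protoplasts (limma adjusted p = 0.0494). That call was lost in 18 of 26 alternatives, among them the omission of any 1 library of the unsorted protoplasts, cortex or stele, of endodermis replicate 2 or 3, or of epidermis replicate 2 or 3 (adjusted p from 0.0561 to 0.141). In both genes 1 or more sorted libraries were also at 0, so the groups overlapped. Both are among the 6 that passed the filter only through the sorted tissues.

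Set against the average of the 4 remaining sorted tissues, the quiescent center was low in many of the genes. Of the 186 tested, 90 fell and 5 rose there, or 48.4% and 2.69%, beside 28.2% lower and 15.6% higher among all genes tested. The median log2 change was -2.37, against -0.48 over all genes tested. The size of this difference depended on the processing. Quantile normalization moved the median of all genes to 0.05 and that of the tested members to -0.75, with 47 of them lower and 14 higher, beside 20.0% and 21.9% of all genes tested. With library weights estimated per group, 36 were lower and 0 higher, beside 14.0% and 5.44%. Of the 90 genes that fell, 25 reached the filter on low values only through the other 4 sorted tissues, and had to differ to be tested. The zeros of the quiescent center libraries, given above, move with this result, and their part in it was not tested.

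Zm00001d027645 fell most here too, at 0 in all 3 quiescent center libraries and at 381, 629.7 and 439 normalized reads in the epidermis and 1305, 1521 and 1239.7 in the cortex. On the means it was at least 474-fold lower in the quiescent center than in the other 4 sorted tissues, against the floor (limma adjusted p = 3.75e-12). Zm00001d018638 was also at 0 in all 3 quiescent center libraries, with 584, 497 and 930.5 in the cortex and 154, 162 and 182 in the stele, and was at least 142-fold lower (limma adjusted p = 2.67e-07). In both genes every library of the other 4 sorted tissues lay above the quiescent center.

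Among the genes that rose, Zm00001d029078 had 0, 410.0 and 182 normalized reads in the quiescent center, against 0 in all endodermis libraries and at most 16.1 in any other sorted library. Its libraries were discordant, and the log2 change of 3.9997 (SE 1.61, limma adjusted p = 0.0475) was lost in 15 of 23 alternatives. It was lost without any 1 library of the endodermis or the stele, and without cortex replicate 1 or 3, epidermis replicate 1 or 2, or quiescent center replicate 2 or 3 (adjusted p from 0.0524 to 0.296).

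Zm00001d029923 had 377, 1477 and 4169 in the quiescent center, against 934, 626 and 776 in the stele and 37.6, 42.9 and 42.2 in the endodermis (log2 change 2.59, SE 0.64, limma adjusted p = 0.00322). Its lowest quiescent center library lay within the range of the sorted tissues, and with weights per group the call was lost (adjusted p = 0.0656).

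The outer layers, epidermis and cortex, were compared with the inner ones, endodermis and stele. Of the 186 tested genes, 19 rose and 17 fell in the outer layers, or 10.2% and 9.14%, beside 8.65% higher and 10.8% lower among all genes tested. These shares are close to those of all genes. The median log2 change was 0.17, against -0.04 over all genes tested. TMM factors in edgeR gave 16 higher and 9 lower, beside 8.47% and 8.91% of all genes tested. With library weights per group, 31 were higher and 27 lower, beside 12.0% and 15.2%. Of the 19 genes that rose, 2 reached the filter only through the outer layers, and of the 17 that fell, 4 did so only through the inner ones.

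Zm00001d024515 rose most in the outer layers, with 50.5, 88.9 and 81.7 normalized reads in the epidermis and 46.8, 101.0 and 72.9 in the cortex, against 0 in all endodermis libraries and 16.1, 9.62 and 3.74 in the stele. The outer and inner libraries did not overlap (log2 change 4.54, SE 0.95, limma adjusted p = 0.0017). Zm00001d039698 had 154, 82.9 and 108 in the epidermis and 216, 175 and 136 in the cortex, against 3.54, 0 and 0 in the endodermis and 57.7, 28.9 and 41.1 in the stele. It too was separate in all libraries (log2 change 4.07, SE 0.51, limma adjusted p = 1.46e-05).

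Zm00001d030346 and Zm00001d052039 fell most in the outer layers. Zm00001d052039 was at 0 in all epidermis libraries and at 8.52, 1 and 13.5 in the cortex, against 24.1, 152 and 119.6 in the endodermis and 33.1, 28.9 and 18.7 in the stele, with no overlap (log2 change -4.17, SE 1.11, limma adjusted p = 0.0102). Zm00001d030346 had 0, 3.03 and 0 in the epidermis and 0, 2.001 and 131 in the cortex, against 123, 48.9 and 53.7 in the endodermis and 82.4, 117 and 79.4 in the stele. A single cortex library was higher than all inner ones, and the log2 change was -4.55 (SE 1.05, limma adjusted p = 0.00382). Its plain means were 22.7 in the outer layers and 84.0 in the inner ones. That is a smaller difference than the log2 change, which averages log2(value + 1) over the libraries. With edgeR its call was lost (adjusted p = 0.0644).

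**Figure D5:**
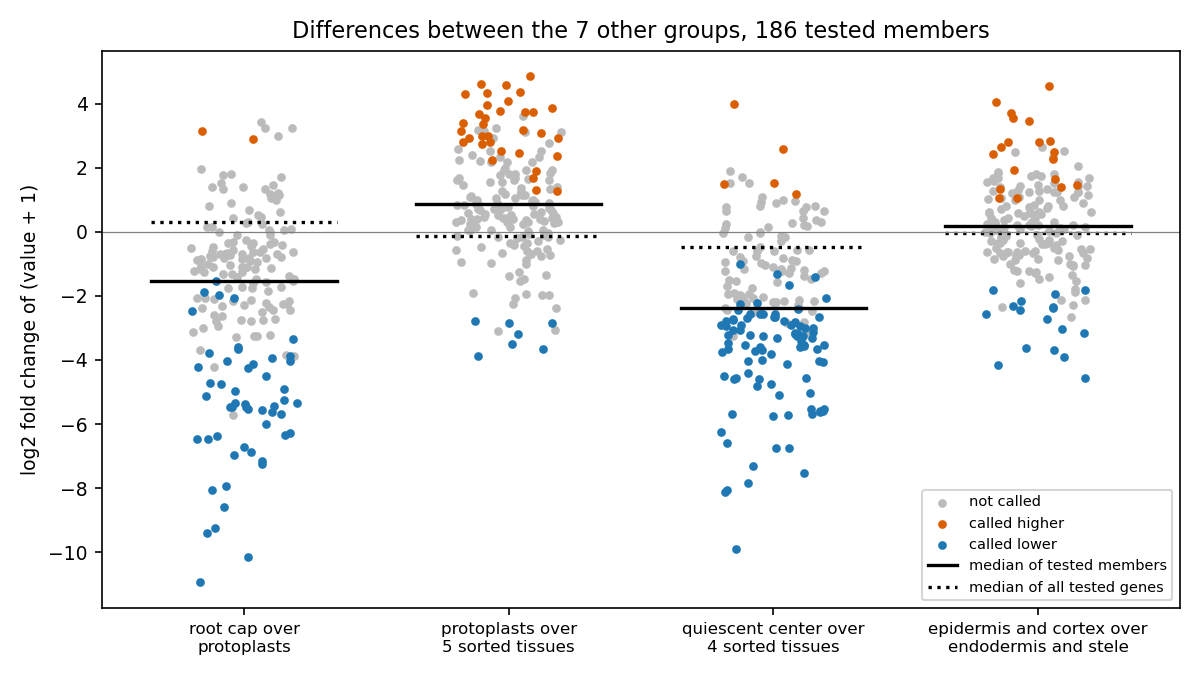
Each point is 1 of the 186 tested genes in each of 4 comparisons between groups other than intact tips, with its log2 fold change on the y axis; orange and blue points were called higher and lower, solid bars are the median of these genes and dotted bars the median of all genes tested. The solid bars lie at -1.54, 0.86, -2.37 and 0.17 from left to right, and the dotted ones at 0.30, -0.11, -0.48 and -0.04.

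Some of the genes had identifiers with neighbouring numbers. How many such pairs a random set of genes would hold was not tested. How often random pairs of the 200 genes share a second highest group was not tested either. Among the 200 genes 3 pairs had consecutive numbers and 2 pairs were 2 apart; the position of these genes in the genome was not analysed here. Zm00001d011901 held 361, 495 and 447 normalized reads in intact tips and 89.99, 202 and 113 in the epidermis, while its neighbour Zm00001d011902 held 781, 132 and 472 in intact tips and 7.35, 19.2 and 20.4 in the epidermis. Their highest and lowest intact tip libraries were in opposite order. Zm00001d040544 and Zm00001d040545 both had their highest value in intact tip replicate 1, but the second highest group was the unsorted protoplasts for Zm00001d040544 and the endodermis for Zm00001d040545.

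In the pair Zm00001d039698 and Zm00001d039700 both genes had the cortex as second highest group. Zm00001d039700 held 123, 104 and 147 normalized reads in intact tips and 9.58, 8.003 and 32.4 in the cortex, and was at 0 in all root cap, unsorted protoplast and quiescent center libraries. Of the 5 pairs, this was the only one in which the second highest group was shared.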

How the data were processed

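RNA was sequenced from 24 libraries, 3 in each of 8 groups. The deposited values are a signal on a count scale: reads per gene that the authors divided by a size factor per library. Trimmomatic, kallisto 0.43 and DESeq2 are named, per the submitters' processing notes, and the genome build and annotation are not given in the sources used here. Whole reads were recovered from the steps between values, and 100% of values came out whole within 0.01 read. The 8 further columns of the table were not used. Intervals and floors cover counting error only.

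The members and lists were chosen with earlier results of these data known. Values were tested as log2(value + 1) with limma 3.58.1 (R 4.3.3), with a trended prior variance, 1 mean per group and Benjamini-Hochberg adjustment, on the 21 libraries other than intact tips and on genes with a value of at least 10 in at least 3 of them. Alternatives were edgeR 4.0.16 and DESeq2 1.42.0 on recovered reads, quantile normalization, pseudocount 10, no filter, all 24 libraries, weights per group, a replicate block and leaving out each replicate. Named genes are the first 10 by ratio, the last 2 inside and first 2 outside the limit, the 2 highest in intact tips and in a second group, and up to 2 called genes per comparison and direction with the largest change. The leads of each class and the pairs with neighbouring numbers were named after their values were seen. Marker and functional lists could not be used, since 0 identifiers matched a name. Replicate numbers come from the sample titles; the description of replicate 3 of epidermis, cortex and stele gives the number 2 instead, so leave-one-out and block results of these groups rest on the titles.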

Additional observations from a re-analysis of the deposited data

How the results depend on the processing

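With library weights per group, 36 of the 200 genes were called between the quiescent center and the other 4 sorted tissues and 58 between outer and inner layers; with quantile normalization 61 were called for the quiescent center. The main counts were 95 and 36. The cause was not tested. Raising the ratio to 4 left 67 genes passing, all among the 200 by construction. Leaving out 1 library gave 46 to 53 calls for the root cap (54 with all), 21 to 52 for unsorted protoplasts (41), 85 to 106 for the quiescent center and 25 to 33 for outer against inner layers; 299 to 375 genes then passed the rule, 161 to 173 of the 200 were again among the first 200, and 183 to 196 still passed. Quantile normalization moved the median of all genes from 0.30 to -0.07 for the root cap and from -0.11 to 0.06 for unsorted protoplasts. On recovered reads, edgeR called 5299, 1758, 10192 and 4399 of all genes in the 4 comparisons in the order of the report, beside 6746, 2797, 11078 and 4924 with limma. Replicate numbers did not pair the libraries: over 63 same-numbered pairs the mean correlation was 0.00841, 11 exceeded 0.1, and the best match of a library carried its own number in 9 of 21. With replicate number as a block, 52, 41, 92 and 36 genes were called. The shares of all genes called with the block or with 1 library left out are not given here. Nothing particular to the 200 genes is read from those counts. Of the single-gene changes under alternatives, 284 held, 51 lost their call and 0 reversed. Ratios of genes near the floor of 3 reads are limited by depth.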
